A study of Homo sapiens with 6 samples.

Results

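The 31 genes examined here encode enzymes that make or interconvert amino acids, carriers that move amino acids across membranes, and 2 further genes on the same list, the secreted glycoprotein gene STC2 and the antisense RNA VLDLR-AS1. They were chosen by symbol from a list of serine, proline, asparagine, one-carbon and glutamine enzymes and amino acid carriers. All 31 symbols were found among the 21850 genes listed, with 18 enzymes, 11 carriers and the 2 others. RNA was sequenced from MM.1S cells, an established human multiple myeloma line labelled as wild type in both groups, after lentiviral transduction for 3 days with a scramble hairpin (shNT, 3 libraries) or with a hairpin against the kinase PRKCN (shPRKCN, 3 libraries). Both groups thus carried a hairpin vector, and which PRKCN hairpin was used is not given by the labels. Whether the 3 libraries of a group came from separate cultures is not stated either, so that p-values measure the spread between these libraries, which may be technical.

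Cells build serine from a glycolytic intermediate in 3 steps catalyzed by PHGDH, PSAT1 and PSPH, and the mitochondrial folate enzymes SHMT2, MTHFD2, MTHFD1L and ALDH1L2 pass the serine carbon on as one-carbon units. Many genes of this kind, ASNS among them, are known targets of the amino acid response, in which the transcription factor ATF4 binds composite C/EBP-ATF elements. Plasma cells and the myelomas that arise from them secrete large amounts of antibody protein, for which amino acid uptake and synthesis provide the building blocks.

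The depth was even. Library totals ran from 35625564 to 37730003 counts, so that 3 counts, taken as the floor, correspond to 0.079 to 0.0849 CPM (counts scaled to library size). PRKCN, listed as PRKD3, went from 44913, 47712 and 45531 counts under shNT to 19979, 18253 and 19998 under shPRKCN, a log2 fold change of -1.29 (SE 0.03, edgeR adjusted p = 8.2e-43). All 10 plasma cell markers were present, and they summed to 10650 to 10820 CPM in shNT and 9599 to 9755 CPM in shPRKCN. The 4 monocyte and macrophage markers summed to 15.8 to 18.7 CPM in shNT and 10.4 to 12.8 CPM in shPRKCN, nearly all of it CD68. DCN (fibroblast), LYZ (monocyte) and CD3D (T cell) did not pass the floor in any library, and they were the only listed markers of which this held. The 3 fibroblast markers listed summed to 0.793 to 1.47 CPM in shNT and 0.484 to 0.711 CPM in shPRKCN. The 4 epithelial markers summed to 0.935 to 2.095 CPM in shNT and 0.589 to 1.775 CPM in shPRKCN. The 4 T cell markers summed to 10.9 to 12.1 CPM in shNT and 27.7 to 31.5 CPM in shPRKCN, and CD3E (379 to 419 against 1021 to 1150 counts) made up most of both. The part of these shifts in the results below was not tested.

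Promoter sequences show which of these genes carry letters of the C/EBP-ATF element near their start. RefSeq windows of GRCh38.p14, running from 250 bases before to 50 bases after a transcription start, were at hand for 24 of the 31 members, in 41 windows since some genes have several starts. The core TGATGNAA (or TTNCATCA on the other strand) was present in 9 of the 24 members (37.5%), as against 4.46% of all 27305 genes with a window and 2.78% of the 11035 tested genes with one. Counted by window, the shares were 26.8% of 41 member windows and 3.62% of all 35116. Many genes of this kind are known targets of the response that uses this element, so these contrasts only describe the list. The 9 sites are shown 5′ to 3′ along the gene's strand with 11 bases on each side, fewer where the window ends, and with the core in capitals.
ASNS, chr7:97872458-97872487, minus strand: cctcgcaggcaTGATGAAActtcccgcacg
SLC38A1, chr12:46266502-46266531, minus strand: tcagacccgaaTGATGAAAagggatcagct
SLC7A1, chr13:29595663-29595692, minus strand: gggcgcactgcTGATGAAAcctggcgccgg
BCAT1, chr12:24949131-24949160, minus strand: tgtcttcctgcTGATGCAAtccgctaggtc
MTHFD1L, chr6:150866346-150866375, plus strand: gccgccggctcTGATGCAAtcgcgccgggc
SLC1A5, chr19:46784893-46784922, minus strand: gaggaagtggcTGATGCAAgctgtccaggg
SLC1A4, chr2:64989381-64989410, plus strand: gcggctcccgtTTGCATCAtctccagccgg
GOT1, chr10:99430804-99430833, minus strand: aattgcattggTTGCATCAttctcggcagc
SLC3A2, chr11:62881725-62881748, plus strand: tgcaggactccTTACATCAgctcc

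ASNS, SLC38A1 and SLC7A1 share the core with A before its last 2 letters, whereas BCAT1, MTHFD1L and SLC1A5 carry TGATGCAA, and SLC1A4 and GOT1 carry the same 8 letters on the opposite strand. SLC3A2 alone reads T at that place, also on the opposite strand. Positions are counted from the start to which the window belongs, and only GOT1 and SLC7A1 had no further window. The core of ASNS began 68 bases before that start (position -68), that of SLC1A5 at -97, that of BCAT1 at -48 and that of GOT1 at -198. Those of SLC1A4 (-7) and SLC38A1 (-4) spanned it, and those of SLC7A1 (8) and SLC3A2 (38) followed it. That of MTHFD1L lay at 25, -90 or -129, depending on the start. For BCAT1, SLC1A4, SLC1A5 and SLC3A2 the window at the gene's outermost start held no core. ASNS, MTHFD1L and SLC38A1 had no window at their outermost start. No core overlapped a match to the other letters searched. The E-box CACGTG, which reads the same on both strands and is bound by MYC-type factors, was found in 6 of the 24 members (25%) and 8.77% of all genes with a window, or 12.4% of the tested genes with one. A shortened interferon-stimulated response element, GAAANNGAA or TTCNNTTTC, was in 0 of the 24 and in 9.86% of all (9.34% of the tested genes). The whole windows of ASNS and SLC1A4 are given because the former gene did not pass the test and the latter was the most abundant member and fell, although both hold the core.
ASNS, chr7:97872359-97872658, minus strand: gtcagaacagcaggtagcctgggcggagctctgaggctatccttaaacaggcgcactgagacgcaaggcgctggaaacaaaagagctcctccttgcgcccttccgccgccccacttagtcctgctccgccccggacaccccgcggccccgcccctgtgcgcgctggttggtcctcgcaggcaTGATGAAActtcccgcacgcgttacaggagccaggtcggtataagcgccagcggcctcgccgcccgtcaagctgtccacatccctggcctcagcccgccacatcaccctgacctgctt
SLC1A4, chr2:64989149-64989448, plus strand: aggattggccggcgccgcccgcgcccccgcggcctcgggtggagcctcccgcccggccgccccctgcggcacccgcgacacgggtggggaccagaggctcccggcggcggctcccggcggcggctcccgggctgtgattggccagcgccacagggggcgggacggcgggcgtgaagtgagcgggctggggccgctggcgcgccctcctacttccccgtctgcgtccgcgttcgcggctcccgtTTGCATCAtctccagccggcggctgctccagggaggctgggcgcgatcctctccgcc

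In shPRKCN cells the RNA of all 3 serine enzymes, all 4 mitochondrial folate enzymes, both proline enzymes and 8 of 11 carriers was lower at an adjusted p under 0.05. The 6 genes for transaminases and glutamate dehydrogenase were mixed, with 3 lower and 2 higher, and ASNS did not pass. Of the 31 members, 29 passed the count filter and were tested together with all other genes. A gene was called when its adjusted p was under 0.05 and its log2 fold change passed 0.58 in size. By this rule 9 members were called lower in shPRKCN and 0 higher, where 10.6% of the 13971 genes tested were called lower and 6.15% higher. Without the fold limit 21 members (72.4%) were lower and 3 higher, against 27.8% and 26.5% of all genes. For the same numbers of members, 21 and 3, the shPRKCN libraries lay wholly below or wholly above the shNT libraries, as they did for 29.8% and 29% of all genes. The median log2 fold change was -0.41 over the 29 members and 0.0012 over all genes tested. The members were chosen with earlier results of these data known, so these contrasts with all genes only describe the list. CBS passed the filter through its shNT libraries alone and therefore had to differ. Among genes with at least 10 counts in every library, which leaves CBS out, 8 members were called lower and the median was -0.41. Together the 31 genes took 0.295% to 0.300% of all counts in shNT and 0.238% to 0.241% in shPRKCN. In bulk RNA, fewer cells expressing a gene and less of its RNA per cell cannot be told apart.

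**Figure D1:**
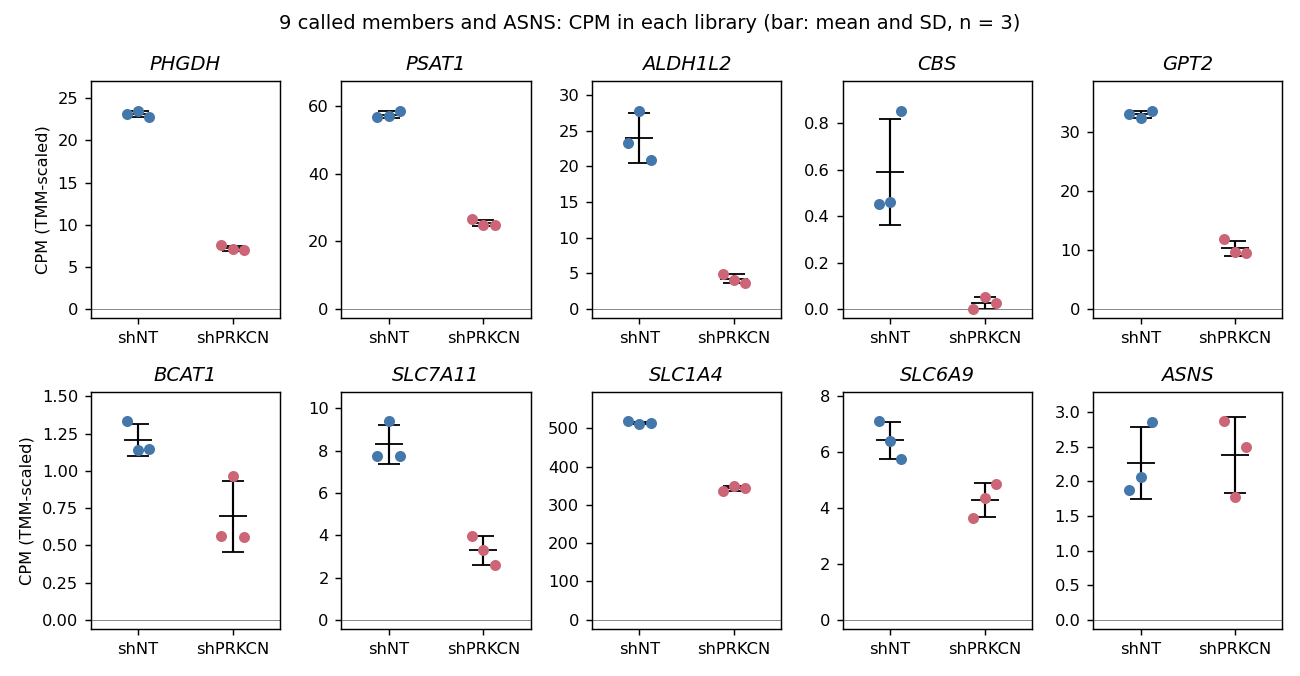
CPM (linear axis from 0, library sizes scaled by TMM) of the 9 called members and of ASNS in each of 3 shNT (blue) and 3 shPRKCN (red) libraries, with the group mean and SD in black. For the 9 called members every shPRKCN point lies below every shNT point, while the ASNS points of the groups intermingle.

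Among the serine enzymes, PHGDH and PSAT1 were called lower and PSPH was lower within the fold limit. PHGDH, the dehydrogenase that commits carbon to serine, had 817, 864 and 853 counts in shNT and 282, 263 and 266 in shPRKCN. These equal 23.1 ± 0.358 and 7.21 ± 0.298 CPM (SD, n = 3), and the log2 fold change was -1.68 (SE 0.09, edgeR adjusted p = 4.41e-27). PSAT1, the aminotransferase of the next step, had 2003, 2104 and 2197 counts in shNT and 992, 929 and 943 in shPRKCN. Its level was thereby reduced to 44.2% of shNT, with a log2 fold change of -1.18 (SE 0.05, adjusted p = 1.61e-29). PSPH, the phosphatase that releases serine, read 454, 498 and 491 counts in shNT and 366, 425 and 329 in shPRKCN. No library of one group reached the other, but its log2 fold change of -0.40 (SE 0.10, adjusted p = 0.000364) stayed within the fold limit. Relative to PSPH in the same library, the FPKM (reads per kilobase of gene, scaled to library size) of PHGDH was 0.772 ± 0.0161 in shNT and 0.322 ± 0.0441 in shPRKCN (SD, n = 3 each). The exact 2-sided permutation p of this ratio was 0.1, the smallest that 3 against 3 libraries allow. It was 0.109 after adjustment over the 12 ratios of one gene to another. All 12 were chosen after their values were seen, so their p-values here and below only describe them.

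All 4 mitochondrial folate enzymes were lower, to very different extents. ALDH1L2, which oxidizes 10-formyltetrahydrofolate in mitochondria, had 820, 1022 and 780 counts in shNT and 183, 153 and 140 in shPRKCN. Its level was 17.7% of that in shNT, with a log2 fold change of -2.50 (SE 0.10, edgeR adjusted p = 5.74e-32), the greatest decrease among members with more than 100 counts in every library. The other 3 stayed within the fold limit. MTHFD2, the dehydrogenase and cyclohydrolase, ran from 6780 to 7324 counts in shNT and from 4805 to 5213 in shPRKCN, a log2 fold change of -0.54 (SE 0.04, adjusted p = 1.09e-20). SHMT2, which takes the carbon from serine, was second among all members in shNT by FPKM (74.8 ± 2.40, SD, n = 3) and fell to 57.0 ± 0.828, at a log2 fold change of -0.41 (SE 0.04, adjusted p = 1.37e-15). MTHFD1L, the mitochondrial formate-forming synthetase, changed by -0.27 (SE 0.06, adjusted p = 0.00017). As a result of these unequal changes the ratio of ALDH1L2 to MTHFD1L FPKM went from 1.28 ± 0.153 to 0.273 ± 0.0338 (SD, n = 3 each, exact permutation p = 0.1). By contrast, the ratio of SHMT2 to its cytosolic counterpart SHMT1, a gene outside the 31, was 6.91 ± 0.375 in shNT and 6.65 ± 0.178 in shPRKCN, and the groups overlapped (exact permutation p = 0.4).

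ASNS, asparagine synthetase, did not pass the test. Its counts were 66, 76 and 107 in shNT and 107, 66 and 95 in shPRKCN. The highest count, 107, thus occurred once in each group, as did the lowest, 66. The log2 fold change of 0.07 (SE 0.22, edgeR adjusted p = 0.809) had a 95% interval from -0.36 to 0.50, which spans a moderate decrease as well as an increase. ASNS was also low for an enzyme of this kind, with 0.695 ± 0.160 FPKM in shNT and 0.742 ± 0.179 in shPRKCN (SD, n = 3 each), and ranked 27 of 31 members in shNT.

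Both proline enzymes were slightly lower. ALDH18A1, which makes the precursor of proline and ornithine from glutamate, read 2576 to 2850 counts across shNT and 1969 to 2083 across shPRKCN (log2 fold change -0.43, SE 0.05, edgeR adjusted p = 4e-12). PYCR1, which completes proline in mitochondria, read 1330 to 1380 and 1162 to 1309 counts, a log2 fold change of -0.17 (SE 0.06, adjusted p = 0.0118). The PYCR1 difference did not pass in every fit, with adjusted p = 0.0974 without shNT replicate 1, adjusted p = 0.159 without shPRKCN replicate 3, and adjusted p = 0.0598 to 0.182 in the limma fits to FPKM.

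The transsulfuration enzymes, which carry sulfur from homocysteine to cysteine, did not move alike in size. CBS, the first of them, was rare, with 16, 17 and 32 counts in shNT and 0, 2 and 1 in shPRKCN. The shPRKCN libraries all lay at or under the floor. Summed over libraries the counts were 65 and 3, which after scaling for depth is 4.49% of shNT with an exact 95% counting interval from 0.903% to 13.7%. CBS was called lower, but it passed the count filter through its shNT libraries alone and had to differ, so no p is given. Its fitted log2 fold change of -4.31 (SE 0.74) depends on the prior count. CBS shares reads with the near-identical copy CBSL, a symbol not among those listed, so that its level carries an uncertainty the counts cannot settle. CTH, which releases cysteine, read 150 to 169 counts across shNT and 129 to 167 across shPRKCN, and its log2 fold change of -0.15 (95% interval -0.47 to 0.16, adjusted p = 0.421) did not pass.

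Of the 6 genes for transaminases and glutamate dehydrogenase, 3 (50%) were lower, 2 (33.3%) were higher and 1 did not pass. Without the fold limit, 27.8% of all genes tested were lower and 26.5% higher, so the share of higher genes lay near that of all genes. Among the 6, GPT2, the mitochondrial alanine aminotransferase, changed most. It had 1170, 1191 and 1259 counts in shNT and 441, 359 and 364 in shPRKCN, or 33.0 ± 0.622 and 10.3 ± 1.26 CPM (SD, n = 3 each). Every shPRKCN library lay far below the lowest shNT library, and the log2 fold change was -1.67 (SE 0.08, edgeR adjusted p = 3.69e-30).

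In the isoenzyme pairs of GOT1 with GOT2 and of BCAT1 with BCAT2 the cytosolic form was lower and the mitochondrial form was not. The alanine aminotransferases did not share this pattern, since the mitochondrial GPT2 was lower. Its cytosolic partner GPT, from the wider list described below, was named after its values were seen. GPT had 1, 0 and 0 counts in shNT and 8, 2 and 6 in shPRKCN. It stayed under the count filter and was not tested. The cytosolic aspartate aminotransferase GOT1 was lower, at 2938 to 3087 counts across shNT and 2455 to 2505 across shPRKCN (log2 fold change -0.32, SE 0.04, edgeR adjusted p = 5.61e-09), while its mitochondrial partner GOT2 did not pass (-0.03, 95% interval -0.10 to 0.04, adjusted p = 0.536). The ratio of GOT1 to GOT2 FPKM was 0.587 ± 0.0137 in shNT and 0.480 ± 0.00318 in shPRKCN (SD, n = 3 each), with no overlap (exact permutation p = 0.1). The cytosolic branched-chain aminotransferase BCAT1 had 47, 42 and 43 counts in shNT and 21, 36 and 21 in shPRKCN, a log2 fold change of -0.80 (SE 0.34, adjusted p = 0.0428). At so few counts this call was fragile. It was lost on leaving out any library except shPRKCN replicate 2, at adjusted p = 0.118, 0.0624 and 0.0647 without shNT replicates 1, 2 and 3 and adjusted p = 0.137 and 0.141 without shPRKCN replicates 1 and 3. The mitochondrial BCAT2 was higher instead, with 1868, 1966 and 2203 counts in shNT and 2421, 2713 and 2608 in shPRKCN (log2 fold change 0.32, SE 0.05, adjusted p = 7.55e-08). GLUD1, the mitochondrial glutamate dehydrogenase, was also higher, at 4165 to 4384 counts across shNT and 5016 to 5146 across shPRKCN (0.21, SE 0.04, adjusted p = 5.27e-06). Its near-identical copy GLUD2 had 4 to 19 counts per library.

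**Figure D2:**
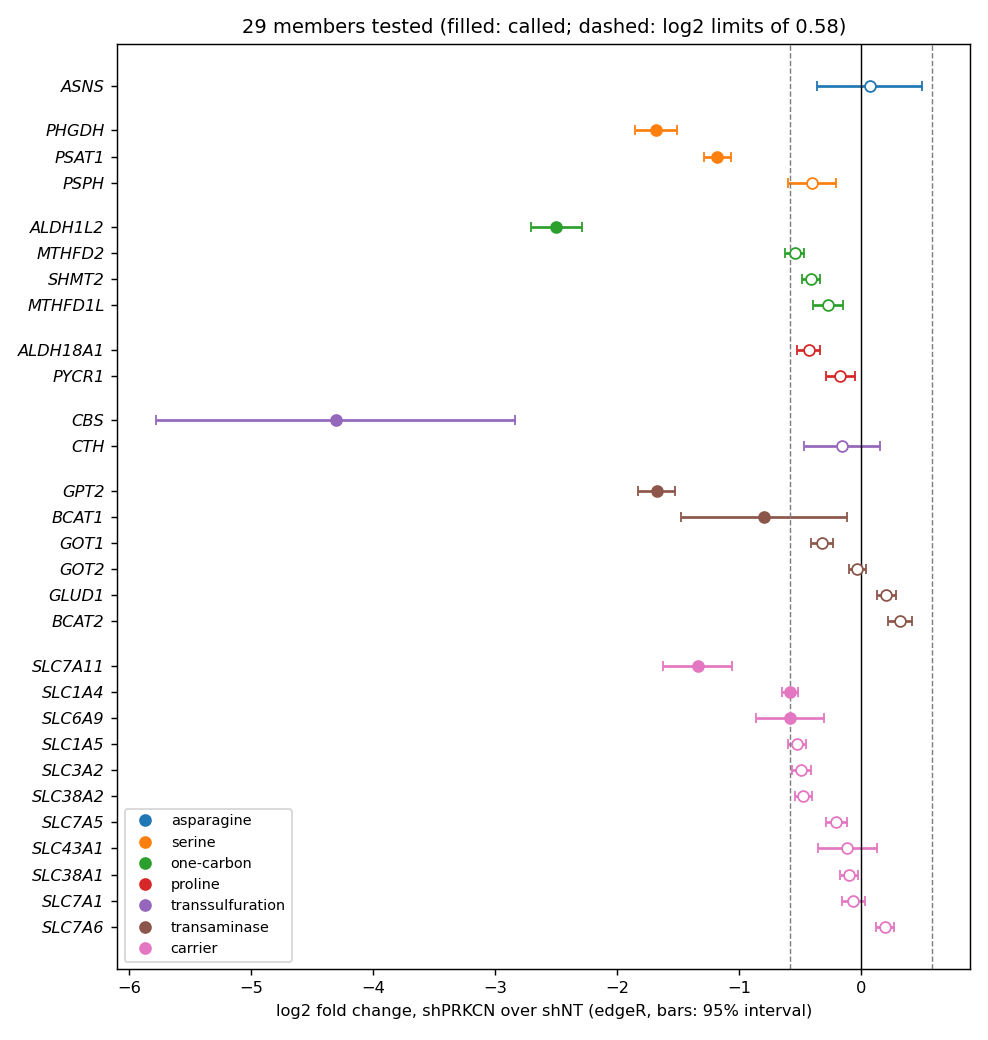
Log2 fold change of shPRKCN over shNT for the 29 members tested, grouped by role and coloured by group, with 95% intervals from the edgeR fit. Filled points were called, open points were not, and dashed lines mark the limits of -0.58 and 0.58. The 9 filled points lie left of the lower limit, and BCAT2, GLUD1 and SLC7A6 are the only members with an interval wholly above 0.

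Of the 11 carriers, 8 (72.7%) were lower, 1 (9.09%) was higher and 2 did not pass. Beside them, 27.8% of all genes tested were lower and 26.5% higher without the fold limit. Of the 8, 3 were called, which is 27.3% of the carriers, against 10.6% of all genes tested. SLC7A11, the cystine and glutamate exchanger, had 273, 345 and 291 counts in shNT and 148, 122 and 99 in shPRKCN. No shPRKCN library came near the lowest shNT library, and the log2 fold change was -1.34 (SE 0.14, edgeR adjusted p = 7.9e-13). SLC1A4, a carrier of alanine, serine and cysteine, was the most abundant member in both groups, at 109 ± 0.399 FPKM in shNT and 73.4 ± 0.844 in shPRKCN (SD, n = 3 each). Its counts were 18280, 18833 and 19255 in shNT and 12575, 12997 and 13028 in shPRKCN. The spread within a group was small beside the difference, although the log2 fold change of -0.59 (SE 0.03, adjusted p = 7.73e-25) lay so close to the limit that its 95% interval, -0.65 to -0.52, held the limit. SLC6A9, a glycine carrier, read 250, 235 and 215 counts in shNT and 136, 161 and 184 in shPRKCN, a log2 fold change of -0.58 (SE 0.14, adjusted p = 0.000291). These calls hung on the fold limit and not on the p. Without shPRKCN replicate 1 or 3, SLC1A4 came to -0.570 and -0.578, inside the limit, and SLC6A9 came to -0.506, -0.578 and -0.478 without shNT replicate 1, shNT replicate 2 and shPRKCN replicate 1.

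Several other carriers of neutral amino acids fell by less. SLC1A5, the glutamine carrier, read 8185 to 8665 counts across shNT and 6024 to 6113 across shPRKCN, a log2 fold change of -0.52 (SE 0.04, edgeR adjusted p = 9.04e-21). SLC38A2, a sodium-coupled carrier of neutral amino acids, changed by -0.47 (SE 0.04, adjusted p = 4.54e-19), from 313 ± 9.30 to 225 ± 7.15 CPM (SD, n = 3 each). SLC38A1, which lies near it on chromosome 12, changed by only -0.10 (SE 0.04, adjusted p = 0.0149). It did not pass without shNT replicate 1 (adjusted p = 0.0934), shNT replicate 2 (adjusted p = 0.129) or shPRKCN replicate 3 (adjusted p = 0.072), nor in the limma fits to FPKM (adjusted p = 0.157 to 0.304). The ratio of SLC38A2 to SLC38A1 FPKM decreased from 2.77 ± 0.0406 to 2.13 ± 0.0767 (SD, n = 3 each, exact permutation p = 0.1). SLC7A1, a carrier of cationic amino acids (-0.06, 95% interval -0.15 to 0.03, adjusted p = 0.259), and SLC43A1, a carrier of branched-chain and other large neutral amino acids (-0.11, 95% interval -0.36 to 0.13, adjusted p = 0.445), did not pass. Without shPRKCN replicate 2, SLC43A1 did pass (edgeR adjusted p = 0.0318).

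SLC3A2 encodes the CD98 heavy chain, which pairs with a light chain of the SLC7 family to bring it to the membrane. It read 5783, 6061 and 6423 counts in shNT and 4515, 4550 and 4280 in shPRKCN, a log2 fold change of -0.49 (SE 0.04, edgeR adjusted p = 7.6e-18). Of its light chains, SLC7A5, a carrier of large neutral amino acids, was lower (-0.20, SE 0.04, adjusted p = 4.08e-05), and SLC7A6, a carrier of the y+L system, was higher, with 6753 to 7215 counts across shNT and 8094 to 8142 across shPRKCN (0.20, SE 0.04, adjusted p = 5.72e-06). The other y+L light chain SLC7A7, from the wider list described below, was higher as well (0.95, SE 0.11, adjusted p = 5.05e-12). SLC7A8, a light chain named after its values were seen, had 4, 2 and 5 counts in shNT and 49, 78 and 79 in shPRKCN. It passed the count filter through its shPRKCN libraries alone and therefore had to differ, so no test of it is given.

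Set side by side on the FPKM scale, the 5 light chains SLC7A5, SLC7A6, SLC7A7, SLC7A8 and SLC7A11 summed to 50.6, 50.8 and 48.9 in shNT and 54.9, 56.1 and 54.1 in shPRKCN. The heavy chain went the other way, from 66.5, 67.2 and 69.8 to 50.1, 49.9 and 46.8. The ratio of heavy to summed light chain RNA was 1.36 ± 0.0633 in shNT and 0.889 ± 0.0240 in shPRKCN (SD, n = 3 each), without overlap (exact 2-sided permutation p = 0.1, the smallest possible). This ratio was left out of the adjustment over the ratios of one gene to another. It too was chosen after its values were seen, so its p only describes it. These are RNA levels, and the assembly of the carriers was not measured.

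**Figure D3:**
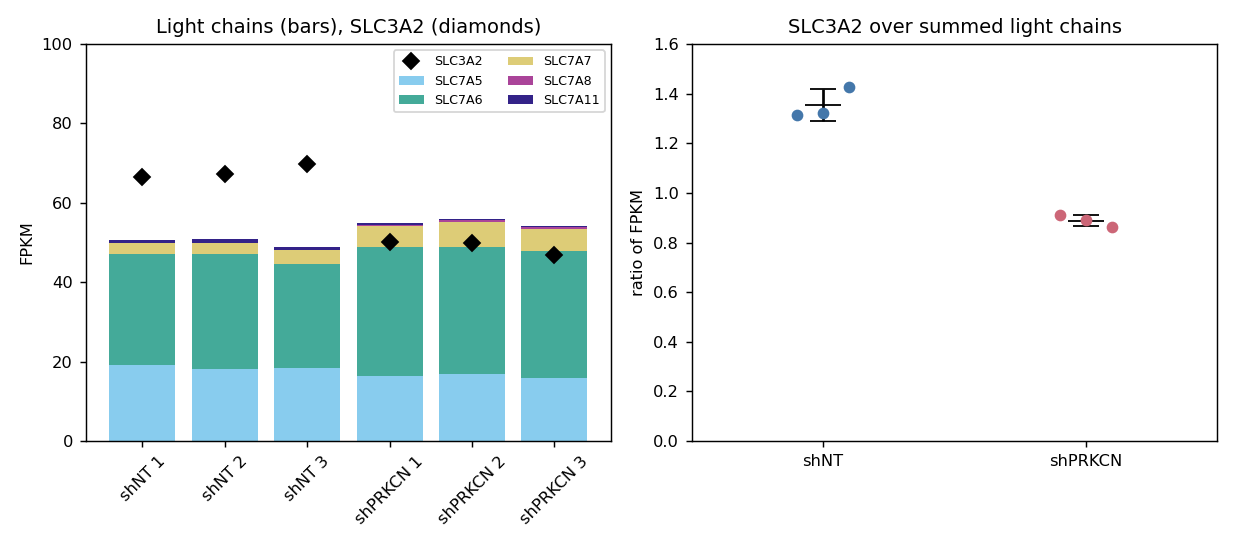
Left, FPKM of the 5 light chain genes stacked as bars and of SLC3A2 as diamonds in each library. Right, the ratio of SLC3A2 to the summed light chains, with the mean and SD of 3 libraries in black; the shNT points lie between 1.31 and 1.43 and the shPRKCN points between 0.865 and 0.913.

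The 2 remaining members stayed under the count filter. STC2, a secreted glycoprotein induced by stress, had 4, 9 and 13 counts in shNT and 4, 10 and 5 in shPRKCN, a ratio of 0.711 with an exact 95% counting interval from 0.372 to 1.34. VLDLR-AS1 had 2, 3 and 0 counts in shNT and 0, 1 and 0 in shPRKCN, at or under the floor throughout, and no fold is given. Its gene (chr9:2535652-2622373) overlaps that of the lipoprotein receptor VLDLR (chr9:2621787-2660056), which was itself lower (1243, 1329 and 1389 against 633, 652 and 580 counts, log2 fold change -1.12, SE 0.07, edgeR adjusted p = 3.12e-24). Whether reads were counted by strand is not known, so reads of the overlap cannot be told apart.

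Members differed widely in level. By mean FPKM in shNT, 6 of the 31 had 50 or more, 10 had 10 to 50, 8 had 1 to 10 and 7 less than 1. In shPRKCN the same classes held 4, 12, 6 and 9. SLC1A4, SHMT2, SLC1A5, GOT2, SLC3A2 and SLC38A2 led the order in shNT. SHMT2 (74.8 ± 2.40) and SLC1A5 (73.1 ± 0.996 FPKM, SD, n = 3) overlapped between libraries, as did GOT2 (70.3 ± 1.40) and SLC3A2 (67.8 ± 1.71). In shPRKCN GOT2, whose RNA did not pass the test, moved from rank 4 to rank 2, while PSAT1 moved from rank 12 to 16, PHGDH from 20 to 23 and ALDH1L2 from 21 to 26. The summed FPKM of all 31 members was 766 to 770.3 in shNT and 611 to 621 in shPRKCN.

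**Figure D4:**
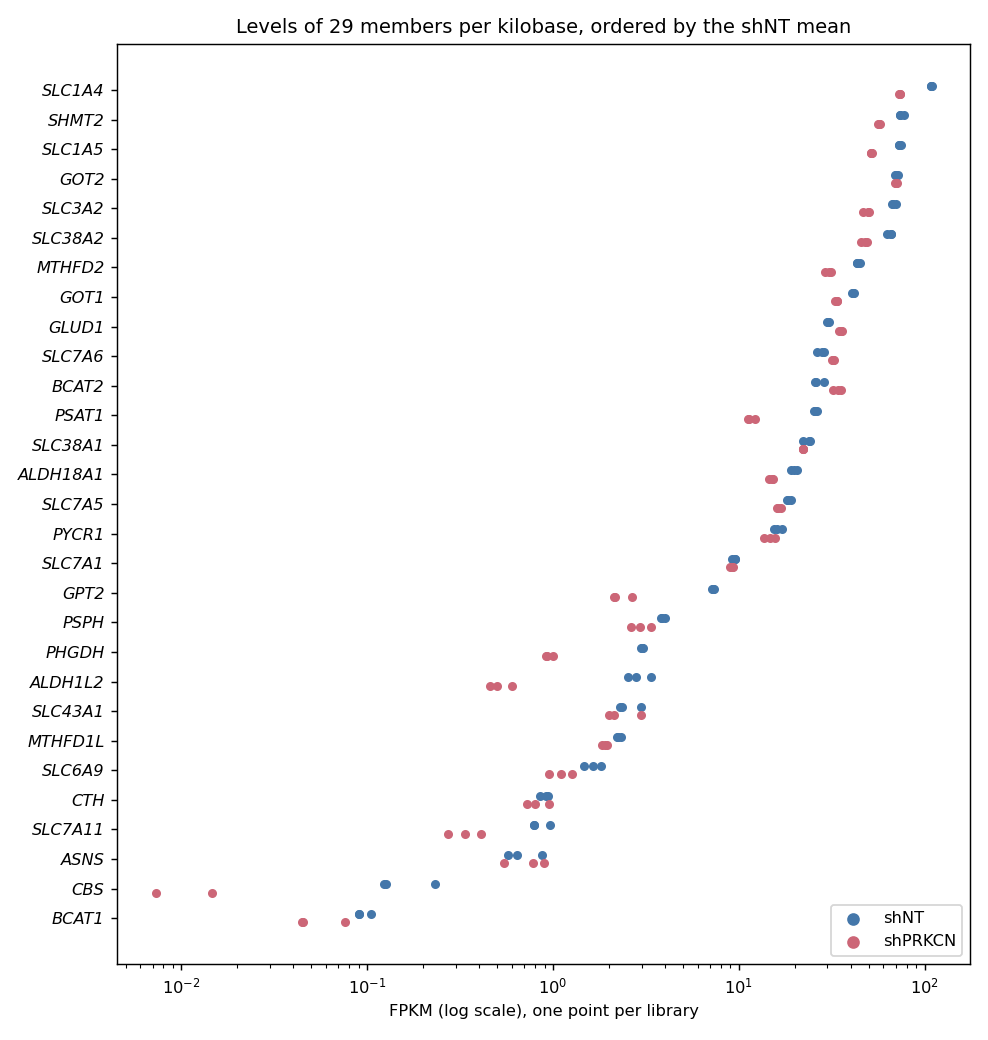
FPKM (log axis) of the 29 tested members, 1 point per library, in shNT (blue) and shPRKCN (red), ordered by the shNT mean. The shPRKCN library of CBS with 0 counts has no place on a log axis and is not drawn. CBS, ALDH1L2, PHGDH, GPT2, SLC7A11 and PSAT1 show the widest gaps between group means, and SLC1A4 is the highest in both groups.

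The core of the C/EBP-ATF element occurred with and without a call. It was present in 2 of the 6 called members with a window (BCAT1 and SLC1A4), in 5 of the 9 that were lower within the fold limit (GOT1, MTHFD1L, SLC1A5, SLC38A1 and SLC3A2), in 0 of the 2 that were higher and in 2 of the 5 that did not pass (ASNS and SLC7A1). Of all 1164 genes called lower that had a window, 3.69% held it. PHGDH and PSAT1 had no match in their windows, which says only that these letters are absent there. ALDH1L2, GPT2, SLC7A11, SHMT2, PSPH, PYCR1 and BCAT2 had no window and were not searched.

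Among 13 regulators of the amino acid response and related genes, 7 were called lower and 0 higher, and 9 were lower and 2 higher without the fold limit. Over all genes tested the shares were 10.6% and 6.15% with the limit and 27.8% and 26.5% without. ATF4 RNA was 13542, 14382 and 14531 counts in shNT and 11650, 12155 and 12274 in shPRKCN, a log2 fold change of -0.27 (SE 0.03, edgeR adjusted p = 1.41e-10) inside the fold limit. The greatest decreases on that list, named after their values were seen, were those of ATF3 (-1.26), SESN2 (-1.08) and DDIT3 (-1.03), stress-responsive genes downstream of ATF4. MYC was marginally higher (0.12, SE 0.03, adjusted p = 0.00136). ATF4 is controlled largely in translation, which RNA counts do not show.

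Of 101 further genes of amino acid metabolism and transport, 96 were listed and 84 tested. Of those, 12 (14.3%) were called lower and 7 (8.33%) higher, and without the fold limit 27 were lower and 34 higher. The 7 include SLC7A8, which had to differ. With the limit, the shares over all genes tested were 10.6% and 6.15%, near those of this list. Without the limit 32.1% of the list were lower and 40.5% higher, against 27.8% and 26.5% of all genes. The median log2 fold change of the 84 was 0.10.

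Of 20 serine, glycine and folate genes tested, 5 (25%) were called lower and 2 (10%) higher, against 10.6% and 6.15% of all genes tested. The 5 include SFXN3, with 28, 20 and 22 counts in shNT and 1, 1 and 13 in shPRKCN. Its shNT libraries carried it past the count filter, so its call has little weight. GGH, which trims folate polyglutamates, had 1671, 1595 and 1731 counts in shNT and 926, 814 and 896 in shPRKCN (log2 fold change -0.96, SE 0.06, edgeR adjusted p = 3.59e-23). MTHFD2L, an isoenzyme of MTHFD2, rose from 340, 353 and 420 counts to 587, 575 and 594 (0.62, SE 0.09, adjusted p = 2.26e-08).

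In the proline, ornithine and arginine genes 2 of 8 (25%) were called lower, against 10.6% of all genes tested. ASS1, which makes the precursor of arginine, had 123, 137 and 131 counts in shNT and 49, 29 and 62 in shPRKCN (log2 fold change -1.52, SE 0.22, edgeR adjusted p = 1.81e-08). In the glutamine, glutamate and aspartate genes 2 of 7 (28.6%) were called lower, again beside 10.6% of all genes tested. They were GFPT1 of hexosamine synthesis (-0.95, SE 0.05, adjusted p = 3.23e-28) and the asparaginase ASRGL1 (-0.80, SE 0.11, adjusted p = 9.48e-10). In the 13 methionine and cysteine genes 0 were called, with 3 lower (23.1%) and 4 higher (30.8%) without the fold limit. The 11 genes of branched-chain breakdown also gave 0 calls and had a median of 0.26. Without the limit 3 of them (27.3%) were lower and 7 (63.6%) higher. Over all genes tested these shares were 27.8% and 26.5%. The branched-chain genes stand downstream of BCAT2, which was higher within the fold limit, and a link between them was not tested.

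Carriers outside the 31 went both ways. Of 12 tested at the plasma membrane, 2 (16.7%) were called lower and 4 (33.3%) higher, against 10.6% and 6.15% of all genes tested. The median of the 12 was 0.26. The 4 include SLC7A8, which passed the count filter through its shPRKCN libraries alone and had to differ. SLC43A2, a carrier of large neutral amino acids, read 599, 657 and 566 counts in shNT and 987, 1154 and 1047 in shPRKCN (log2 fold change 0.77, SE 0.07, edgeR adjusted p = 8.62e-15), whereas its relative SLC43A1 did not pass. SLC7A2, a cationic carrier (-0.62, SE 0.26, adjusted p = 0.0393), and SLC36A4 (-0.61, SE 0.10, adjusted p = 4.54e-07) were lower. Of 13 lysosomal and mitochondrial carriers 1 was called lower (SLC15A4, -0.68, SE 0.09, adjusted p = 3.22e-09) and 1 higher (SLC38A7, 0.71, SE 0.06, adjusted p = 1.49e-15). Each is 7.69% of the 13, near the shares of all genes. Without the fold limit 1 was lower and 8 (61.5%) were higher, against 27.8% and 26.5% of all genes tested.

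**Figure D5:**
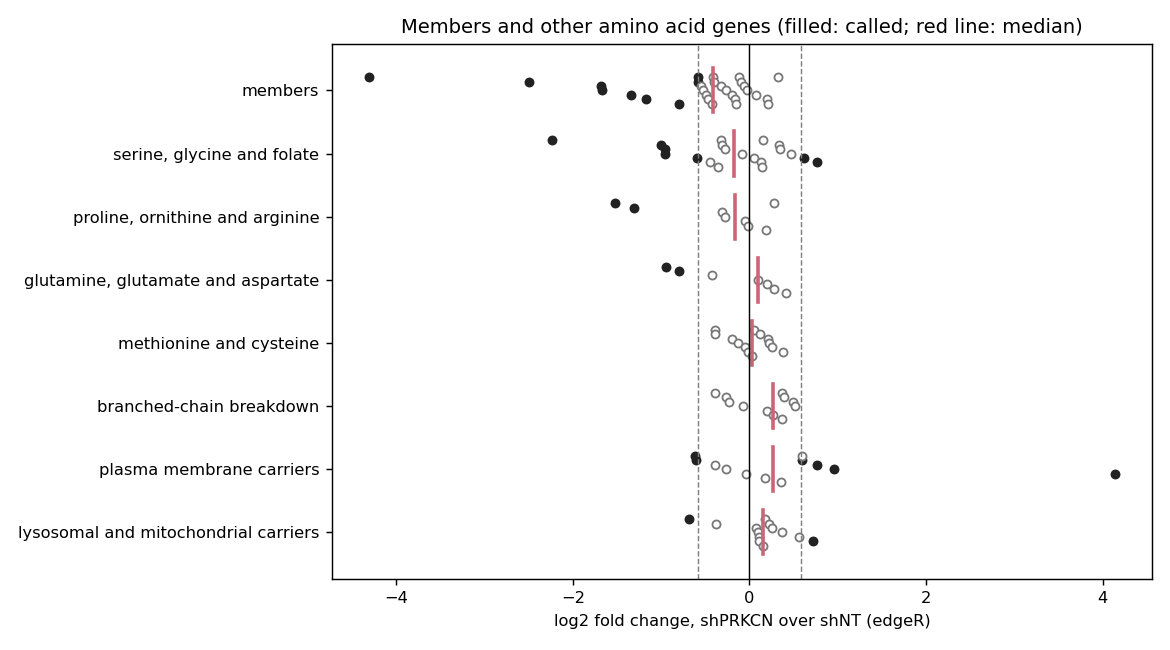
Log2 fold change of shPRKCN over shNT for the 29 members and for 84 further amino acid genes in 7 classes, 1 point per gene, with called genes filled, class medians in red and dashed lines at -0.58 and 0.58. The members centre on -0.41, whereas the medians of the other classes lie between -0.18 and 0.26. Members and classes were chosen with earlier results of these data known, so the contrast is a description only.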

How the data were processed

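Total RNA of 6 MM.1S libraries (3 shNT, 3 shPRKCN, day 3) was sequenced by the authors' contractor. The authors deposited raw read counts per gene for 21850 genes, and FPKM values of the same libraries. All 21850 FPKM rows follow from the counts, the library totals and 1 gene length (within 0.1%), so both tables hold 1 measurement. The submitters' processing notes name FastQC, HISAT2, StringTie and GRCh38.p14, with versions and strand setting not given in the sources used here. Groups came from the treatment labels.

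Counts were fitted with edgeR 4.0.16 (TMM, filterByExpr, quasi-likelihood test, R 4.3.3) over all 13971 genes that passed the filter, with Benjamini-Hochberg adjustment over these. Calls needed an adjusted p below 0.05 and a log2 change larger than 0.58, the limits in the study's methods, which used DESeq2. SE is the log2 fold change divided by the square root of F. Levels were compared between genes only as FPKM. Totals of 35625564 to 37730003 counts limit precision for genes near 3 counts, and intervals on counts cover counting error only. Chi-square per degree of freedom was 3.49 to 5.01 within and 68.9 to 75.8 between groups, so no library repeated another. The edgeR, DESeq2 and limma scripts were tested on simulated data.

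As alternatives the libraries were scaled by RLE, by upper quartile or by size alone. Genes were left unfiltered or needed 10 counts in each library. A block for replicate number was added, and single libraries were left out. DESeq2 1.42.0 took the place of edgeR, as did limma 3.58.1 with a pseudocount of 1 or 0.1 FPKM, and with 1 also after keeping genes whose FPKM reached 1 in at least 3 libraries. The fold limit was dropped or tested by glmTreat. Motifs were searched as letters on both strands of RefSeq promoters. The members and lists were chosen with earlier results of these data known. The text names all 31 members, PRKD3, VLDLR, ATF4, listed near-identical copies and, per class of the wider list, the 2 called genes changed most each way, given a mean of at least 50 counts. Some genes that this rule names are not reported here. Ratios between genes were chosen after their values were seen.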

Additional observations from a re-analysis of the deposited data

How the results depend on the processing

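The median log2 fold change of the members was -0.45 to -0.20 wherever it was refitted, and 0 were called higher under every alternative except no fold limit, where 21 were called lower and 3 higher, and 7577 genes in all. On log2(FPKM + 1), 4 members were called lower with a median of -0.20 (961 genes called), and with the FPKM filter 4 with a median of -0.31 (943 genes); the pseudocount of 1 shrinks changes of genes at low FPKM. DESeq2 called 7 members lower and glmTreat 6, with 1160 genes called in all. Leaving out single libraries gave 6 to 9 members called lower. PHGDH, PSAT1, ALDH1L2 and GPT2 kept their call in all 16 alternatives that refit them. SLC7A11 kept it in 14 of 15, SLC1A4 in 8 of 16, BCAT1 in 7 of 15 and SLC6A9 in 5 of 16. CBS kept it in 13 of 14, but had to differ to pass the count filter of the main fit. ASNS, at 0.07 with all libraries, ran from -0.0825 (without shPRKCN replicate 1) to 0.27 on leaving out single libraries, and was also below 0 without shNT replicate 1 (-0.0497). SLC43A1, at -0.11, ran from -0.32 (without shPRKCN replicate 2) to 0.0174 (without shNT replicate 2), and was 0.0059 without shPRKCN replicate 3. At -0.32 it passed (edgeR adjusted p = 0.0318). The cause was not tested. Same-numbered libraries did not deviate together (correlations of -0.042, -0.013 and 0.004). With 3 libraries per group this cannot show that the numbers carry no pairing. With the replicate block 9 members were called lower, 0 higher and 2317 genes in all. Depth limits statements on CBS, BCAT1, ASNS, STC2 and VLDLR-AS1.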
